A study of Mus musculus with 30 samples.

Results

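The aryl hydrocarbon receptor and its targets were followed through 8 of the 57180 genes of the count table, taken by symbol: Ahr, Arnt, Ahrr, Tiparp, Cyp1a1, Cyp1a2, Cyp1b1 and Aldh3a1. Gene expression in mouse liver was measured by RNA sequencing in 30 libraries, 5 in each of 6 groups, from a prevention study and a treatment study of UB-NPs, which the labels name by this abbreviation. In the prevention study, UB mice had a high-fat diet with 60 mg/kg/day of UB-NPs, MC mice a high-fat diet with water and NC mice a standard diet with water, all for 10 weeks. In the treatment study, a high-fat diet of 10 weeks made Uro and HFD mice obese before dosing began. Both groups continued that diet for a further 8 weeks, when Uro mice received UB-NPs at 60 mg/kg/day and HFD mice water, while NFD mice had a standard diet with water for 18 weeks in all. Doses in the prevention study were given daily by oral gavage, and the design text gives no separate route for the treatment study. The labels put each library in a group but do not state that each came from a separate mouse, so the p-values measure the spread between these libraries. Strain, sex and age are not given in the sources used here.

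AHR is a transcription factor of the bHLH-PAS family that is held in the cytosol by HSP90 and its partner proteins until a ligand binds. It then enters the nucleus, pairs with ARNT and binds xenobiotic response elements, whose core is GCGTG. Cyp1a1, Cyp1b1, Ahrr and Tiparp are widely used readouts of its activity, and Ahrr and Tiparp feed back on the receptor. Cyp1a1 is nearly silent in unexposed liver, whereas Cyp1a2 is made constitutively by the hepatocytes around the central vein.

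The genes differ in how many response element cores lie before their start, and the sequences that show this most clearly are printed here. Both GCGTG and the longer TNGCGTG were searched on both strands, and every TNGCGTG match contains a GCGTG match. In the 1500 bases before the GENCODE start, Cyp1a1 held 10 GCGTG and 6 TNGCGTG matches. At least as many occurred in 0.202% of 21757 protein-coding genes for GCGTG and in 0.005% for TNGCGTG. Cyp1b1 held 10 and 2 matches, Ahrr 6 and 2, Tiparp 4 and 0, and Cyp1a2 2 and 0. Arnt held 0 of either in that window. Of all genes, 62.62% held at least 1 GCGTG and 15.47% at least 1 TNGCGTG in a window of this length. A stretch of 300 bases before Cyp1a1 is shown because it carries 5 of its GCGTG matches, 4 of them TNGCGTG (GRCm39, chr9:57603806-57604105, + strand, bases -336 to -37 from the GENCODE start). Other stretches of that length hold as many GCGTG matches, such as one that covers bases -630 to -450, and the one nearer the start was taken. A stretch with as many GCGTG matches was found in 0.9836% of genes. Capitals mark GCGTG or, for a match on the other strand, CACGC.
Cyp1a1 upstream stretch: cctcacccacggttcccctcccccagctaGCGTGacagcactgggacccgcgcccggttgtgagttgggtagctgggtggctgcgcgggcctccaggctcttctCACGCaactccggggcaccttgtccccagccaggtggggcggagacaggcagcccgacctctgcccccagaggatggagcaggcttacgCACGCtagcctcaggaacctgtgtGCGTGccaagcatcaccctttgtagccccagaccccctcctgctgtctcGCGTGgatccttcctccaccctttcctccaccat
The RefSeq promoter windows (250 bases before to 50 after the start, table build GRCm38.p6) held 6 of the 8 genes, all but Ahr and Aldh3a1. Among 32851 such windows, 32.39% held GCGTG and 5.065% held TNGCGTG. The RefSeq start of Cyp1a1 lies 754 bases downstream of the GENCODE start, so its RefSeq window does not include the stretch above. The windows of Cyp1a2 and Arnt are shown because these were the members that passed a test between groups, that of Cyp1a1 as the neighbour of Cyp1a2, and that of Ahrr because it alone of the 6 held a TNGCGTG match.
Cyp1a2 promoter window, chr9:57683606-57683905, - strand: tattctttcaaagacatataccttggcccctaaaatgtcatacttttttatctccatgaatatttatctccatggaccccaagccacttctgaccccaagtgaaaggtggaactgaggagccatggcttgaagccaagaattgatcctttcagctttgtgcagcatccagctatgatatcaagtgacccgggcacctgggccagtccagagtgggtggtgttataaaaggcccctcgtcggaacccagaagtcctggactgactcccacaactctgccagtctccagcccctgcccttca
Arnt promoter window, chr3:95434140-95434439, + strand: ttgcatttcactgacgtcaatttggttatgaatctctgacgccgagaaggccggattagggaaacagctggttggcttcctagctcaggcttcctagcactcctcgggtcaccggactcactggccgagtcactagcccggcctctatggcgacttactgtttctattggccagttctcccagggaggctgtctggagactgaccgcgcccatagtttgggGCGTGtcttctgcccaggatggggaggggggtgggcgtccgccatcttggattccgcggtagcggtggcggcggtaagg
Cyp1a1 promoter window, chr9:57697363-57697662, + strand: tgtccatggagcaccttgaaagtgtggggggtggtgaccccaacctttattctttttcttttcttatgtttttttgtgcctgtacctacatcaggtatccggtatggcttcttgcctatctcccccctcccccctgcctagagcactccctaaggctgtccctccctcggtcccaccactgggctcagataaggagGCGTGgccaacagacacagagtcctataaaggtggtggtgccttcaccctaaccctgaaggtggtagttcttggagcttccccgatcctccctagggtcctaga
Ahrr promoter window, chr13:74292282-74292581, - strand: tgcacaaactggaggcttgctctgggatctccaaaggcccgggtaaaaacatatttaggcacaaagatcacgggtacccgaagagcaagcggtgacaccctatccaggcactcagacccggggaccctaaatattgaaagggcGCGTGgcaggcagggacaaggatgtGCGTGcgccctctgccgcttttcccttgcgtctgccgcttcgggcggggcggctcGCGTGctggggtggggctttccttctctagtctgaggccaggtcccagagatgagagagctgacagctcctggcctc
The Cyp1a2 window held 0 matches, those of Cyp1a1 and Arnt 1 GCGTG each, and that of Ahrr 3 GCGTG of which 1 was TNGCGTG. The windows of Cyp1b1 and Tiparp held 1 GCGTG each. A match is a description of these letters and not a binding site.

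**Figure D1:**
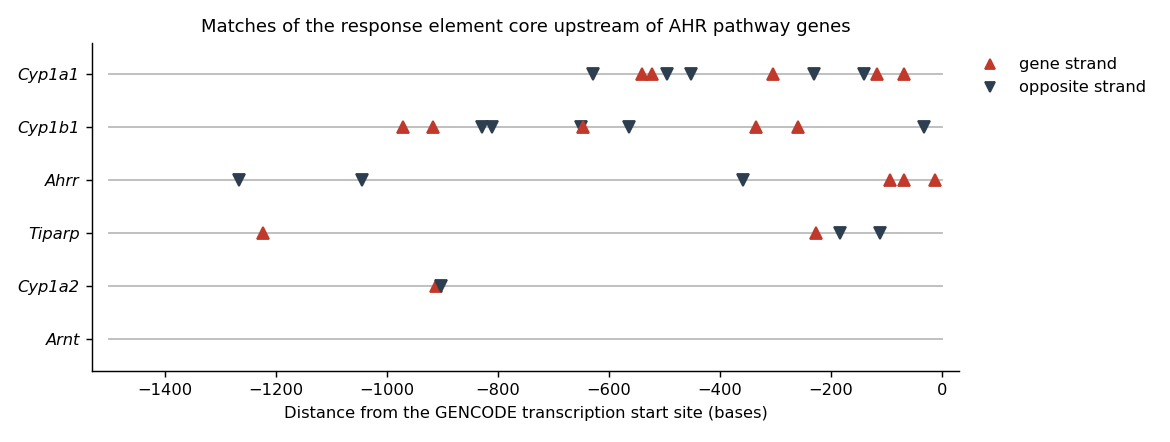
Positions of GCGTG matches in the 1500 bases before the GENCODE start of 6 members, with the distance from the start in bases on the x axis, a triangle up for a match on the gene's strand and a triangle down for one on the opposite strand. Cyp1a1 and Cyp1b1 hold 10 matches each, Cyp1a2 holds 2 and Arnt holds 0.

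Library totals ranged from 17001679 to 24268921 counts. The share of counts from the mitochondrial chromosome averaged 30.7% ± 2.89 in UB, 34.3% ± 9.19 in MC and 46.6% ± 3.43 in NC livers, and 13.1% ± 1.95 in Uro, 47.0% ± 7.13 in HFD and 49.2% ± 7.82 in NFD livers (SD, n = 5 each). No Uro library overlapped an HFD library in this share (10.2% to 15.6% in Uro against 41.0% to 58.5% in HFD). All 7 hepatocyte markers were detected in every group. Levels are given as CPM (counts per 1000000 after TMM scaling within a study), and a gene was called at an edgeR adjusted p under 0.05.

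Ahr, the receptor itself (ENSMUSG00000019256, chromosome 12, 35547973 to 35585057, GRCm39), was detected in every library, at 5.41 to 19.7 CPM, and was called in none of the 11 comparisons. In the prevention study it had 8.40, 10.5, 7.14, 9.60 and 10.3 CPM in UB livers, 10.7, 13.9, 7.88, 9.50 and 9.45 CPM in MC livers, and 7.68, 11.2, 7.25, 7.25 and 7.21 CPM in NC livers. The 3 groups overlapped. In the treatment study it had 16.3, 10.5, 7.53, 10.8 and 15.4 CPM in Uro livers, 9.66, 13.9, 19.7, 11.9 and 16.6 CPM in HFD livers, and 11.8, 6.15, 7.26, 12.7 and 5.41 CPM in NFD livers. Its log2 fold change was -0.16 ± 0.20 for UB against MC and -0.25 ± 0.26 for Uro against HFD (approximate SE; edgeR adjusted p = 0.849 and 0.514). The HFD and NFD ranges overlapped, and the HFD mean was higher by 0.74 ± 0.27 in log2 units (edgeR adjusted p = 0.0742). That difference passed the threshold without NFD replicate 4 (edgeR adjusted p = 0.0286), without the filter on low counts (0.04997) and in a fit of all 30 libraries (0.0466), so its call depends on the samples fitted.

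Arnt, which encodes the partner that AHR needs to bind DNA (ENSMUSG00000015522, chromosome 3, 95341365 to 95404551), was the 1 of 5 members tested that rose in UB livers against MC livers, where 0.607% of 13498 genes passed in either direction and 0.207% were higher. It had 15.9, 11.0, 12.7, 17.0 and 11.7 CPM in UB livers, 7.91, 8.33, 6.28, 7.24 and 8.12 CPM in MC livers, and 15.5, 8.98, 10.6, 8.30 and 9.43 CPM in NC livers. Every UB library lay above every MC library, as in 1.21% of genes, while UB and NC overlapped. The log2 fold change for UB against MC was 0.85 ± 0.20, or 1.81-fold (edgeR adjusted p = 0.0488). The call rests on all 10 libraries: it ended when any 1 of them was left out, with adjusted p-values from 0.0558 to 0.149, while the log2 fold change stayed between 0.76 and 0.92.

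Neither contrast with NC passed the test for Arnt. UB livers were higher than NC livers by 0.38 ± 0.20, and MC livers differed from NC livers by -0.48 ± 0.20 in log2 units (edgeR adjusted p = 0.268 and 0.129). UB against MC and MC against NC share the MC libraries, which had the lowest Arnt mean of the 6 groups. In the treatment study Arnt had 9.79, 10.8, 11.6, 9.83 and 10.6 CPM in Uro livers, 14.7, 7.58, 10.3, 12.2 and 9.54 CPM in HFD livers, and 7.29, 11.3, 7.80, 6.86 and 11.5 CPM in NFD livers. These groups overlapped, and Uro against HFD gave -0.04 ± 0.21 (edgeR adjusted p = 0.907). The effect of UB-NPs on Arnt differed between the studies, with the treatment effect lower than the prevention effect by 0.92 ± 0.28 in log2 units (edgeR adjusted p = 0.0252). Study, feeding time and obesity before dosing cannot be told apart in this contrast, and it did not pass without UB replicate 1 or 4, MC replicate 3, or HFD replicate 1 or 4 (adjusted p between 0.0515 and 0.0722). It did not pass either without the filter on low counts (-0.88, adjusted p = 0.0869), and was smaller on the authors' TPM values with limma (-0.25, 0.475) and when the mitochondrial share was a covariate (-0.30, 0.873).

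Ahrr, the repressor that competes with AHR for ARNT and is itself an AHR target, was at the edge of detection (ENSMUSG00000021575, chromosome 13, 74359237 to 74440462). It had 0 counts in all 5 UB libraries, which allows up to 0.0248 CPM over the group at a floor of 3 counts, 2 counts in all in MC livers and 6 in NC livers, the 6 all in replicate 3. It had 3, 3, 2, 9 and 0 counts in Uro livers, 0, 2, 4, 1 and 0 counts in HFD livers, and 0, 2, 0, 0 and 0 counts in NFD livers. No group stood apart from the others, and the gene did not pass the filter on low counts in any fit. Without that filter its edgeR adjusted p lay between 0.130 and 0.878 over 11 comparisons.

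Tiparp encodes the mono-ADP-ribosyltransferase PARP7, an AHR target that marks the receptor for degradation (ENSMUSG00000034640, chromosome 3, 65435320 to 65463365). It averaged 2.48 ± 0.594 CPM in UB, 1.99 ± 0.830 CPM in MC and 2.56 ± 0.642 CPM in NC livers (SD, n = 5 each). It averaged 2.20 ± 0.419 CPM in Uro, 2.30 ± 1.09 CPM in HFD and 2.33 ± 0.773 CPM in NFD livers. All 6 groups overlapped. The log2 fold change was 0.32 ± 0.36 for UB against MC and -0.08 ± 0.37 for Uro against HFD (edgeR adjusted p = 0.826 and 0.897).

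Cyp1a2, the cytochrome P450 that oxidises caffeine and aromatic amines, was the 1 of 6 members tested that rose in Uro livers against HFD livers, where 27.1% of 14163 genes passed in either direction and 15.3% were higher (ENSMUSG00000032310, chromosome 9, 57584196 to 57590986, minus strand). It had 417, 362, 397, 231 and 335 CPM in Uro livers, 55.4, 176, 70.7, 69.4 and 113 CPM in HFD livers, and 214, 243, 258, 154 and 47.0 CPM in NFD livers. Every Uro library lay above every HFD library, as in 14.5% of genes, and the lowest Uro library lay within the NFD range. Cyp1a2 rose 3.59-fold in Uro livers against HFD livers, or 1.84 ± 0.37 as a log2 value (edgeR adjusted p = 0.00107). The call held without any 1 of the libraries in turn (adjusted p between 0.000216 and 0.0041). Uro against NFD gave 0.93 ± 0.36 and HFD against NFD gave -0.92 ± 0.37 on the log2 scale, neither past the threshold (edgeR adjusted p = 0.0636 and 0.101). HFD against NFD passed without HFD replicate 2 (adjusted p = 0.0230), without NFD replicate 5 (0.0103) and with DESeq2 (0.0475). Uro against NFD passed without NFD replicate 3 (adjusted p = 0.0470), with DESeq2 (0.0352) and on the authors' TPM values with limma (0.000435).

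In the prevention study Cyp1a2 did not pass the test between UB and MC livers. It had 90.4, 68.8, 68.9, 84.9 and 152 CPM in UB livers, 94.0, 191, 206, 86.6 and 61.2 CPM in MC livers, and 79.98, 48.3, 54.8, 58.5 and 111 CPM in NC livers. All 3 groups overlapped, and UB livers differed from MC livers by -0.46 ± 0.33 in log2 units (edgeR adjusted p = 0.689). MC against NC gave 0.86 ± 0.33 (edgeR adjusted p = 0.104), which passed without MC replicate 5 (0.0435) or NC replicate 5 (0.0413) and with DESeq2 (0.0360). The UB-NP effect was larger in the treatment study than in the prevention study by 2.28 ± 0.54 in log2 units (edgeR adjusted p = 0.00507). The diet effect also differed, by -1.82 ± 0.54 (edgeR adjusted p = 0.0441), but not when any 1 of 13 of the 20 libraries concerned was left out (0.0576 to 0.0991). Across the studies, Uro livers were above UB livers by 1.83 ± 0.39 and NFD livers above NC livers by 1.37 ± 0.39 (edgeR adjusted p = 0.00226 and 0.0168). The second of these calls ended without NC replicate 2 (adjusted p = 0.0564) and on the authors' TPM values with limma (0.248). With the mitochondrial share as a covariate, Uro against UB gave 0.89 (edgeR adjusted p = 0.345). The UB-NP effect difference was then 0.70 (edgeR adjusted p = 0.820), so neither passed.

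**Figure D2:**
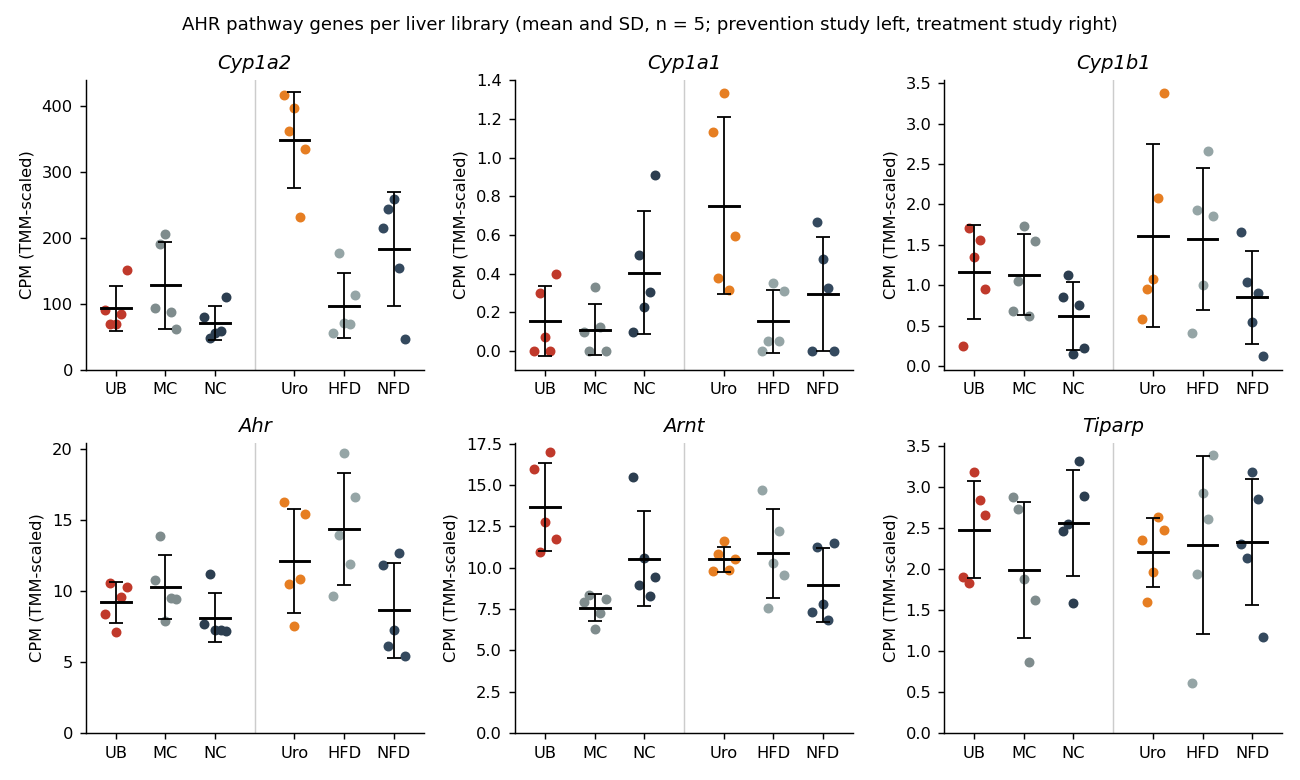
CPM of 6 members in each library (dots), with the mean and SD of 5 libraries, for UB, MC and NC of the prevention study at the left and Uro, HFD and NFD of the treatment study at the right of each panel. The 5 Uro libraries sit between 231 and 417 CPM for Cyp1a2, above all HFD libraries, and the UB libraries sit above all MC libraries for Arnt.

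Cyp1a1, the classical AHR target, lies beside Cyp1a2 in head-to-head orientation (ENSMUSG00000032315, chromosome 9, 57595211 to 57611107, plus strand), with 4224 bases between the annotated gene spans. The GENCODE start of Cyp1a1 used above, at 57604142, lies inside its span, so the starts of both genes are further apart than that. Cyp1a1 had 39, 11, 47, 13 and 19 counts in Uro livers, 0, 1, 8, 1 and 8 counts in HFD livers, and 0, 11, 7, 4 and 0 counts in NFD livers. These counts are 0.317 to 1.34 CPM in Uro livers, 0 to 0.350 CPM in HFD livers and 0 to 0.669 CPM in NFD livers. The lowest Uro library lay within the HFD range and the 3 lowest within the NFD range. The log2 fold change for Uro against HFD was 2.13 ± 0.85, and it missed the threshold (edgeR adjusted p = 0.0682). On the authors' TPM values with limma it passed, at 0.36 on the log2(TPM + 1) scale (adjusted p = 0.00114). The median of all genes on the same scale was 0.55. Cyp1a1 averaged 0.348 TPM in Uro livers and 0.042 TPM in HFD livers, and at such levels adding 1 shrinks a change. Its value cannot be ranked against that median, so whether this pass exceeds the general shift cannot be told.

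In the prevention study Cyp1a1 had 0, 7, 2, 0 and 10 counts in UB livers, 2, 0, 7, 3 and 0 counts in MC livers, and 1, 7, 3, 4 and 16 counts in NC livers, and it did not pass the filter on low counts. UB and MC livers overlapped entirely, and without the filter their log2 fold change was 0.42 ± 1.40 (edgeR adjusted p = 0.992). With this SE, a change of the size seen for Cyp1a2 in Uro livers was not detectable in Cyp1a1 at this depth. On the length-scaled TPM level, the ratio of the group means of Cyp1a2 and Cyp1a1 was 834 in UB, 1375 in MC and 226 in NC livers, and 650 in Uro, 774 in HFD and 784 in NFD livers. These ratios rest on the few Cyp1a1 counts given above. The authors' deposited table calls Cyp1a1 and Cyp1a2 higher for Uro against HFD. In its 6 other comparisons it gives a direction for both genes but calls neither. The other 6 members are not listed in the authors' deposited table.

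Cyp1b1, a further P450 target of AHR that in liver is found mainly in stellate cells, was low in all groups (ENSMUSG00000024087, chromosome 17, 80008966 to 80022532). It had 0.581, 0.954, 1.08, 2.07 and 3.38 CPM in Uro livers, 0.402, 1.93, 1.01, 2.66 and 1.85 CPM in HFD livers, and 1.66, 1.03, 0.542, 0.898 and 0.118 CPM in NFD livers. It averaged 1.16 ± 0.585 CPM in UB, 1.13 ± 0.503 CPM in MC and 0.624 ± 0.421 CPM in NC livers (SD, n = 5 each). The groups overlapped in both studies. The log2 fold change was 0.02 ± 0.56 for Uro against HFD and 0.06 ± 0.62 for UB against MC (edgeR adjusted p = 0.986 and 0.987). The 4 contrasts of a high-fat group with its standard-diet group lay between 0.85 and 0.91 on the log2 scale, none of them past the threshold (adjusted p between 0.266 and 0.434). They are not independent, because UB and MC share the NC libraries, and Uro and HFD share the NFD libraries.

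Aldh3a1, an aldehyde dehydrogenase that is nearly silent in unexposed liver, was read in few libraries (ENSMUSG00000019102, chromosome 11, 61098363 to 61109247). It had 4, 27, 0, 0 and 0 counts in UB livers, 2 counts in 1 MC library and 0 in the other 4, and 0 counts in all NC livers, which allows up to 0.0436 CPM over the group. It had 1, 0, 4, 0 and 1 counts in Uro livers, 0 counts in all HFD livers, which allows up to 0.0308 CPM, and 3 counts in 1 NFD library. The gene failed the filter on low counts in every fit, and without the filter its edgeR adjusted p lay between 0.141 and 0.983 over 11 comparisons. A single UB library held 27 of the 31 UB counts.

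The 1 of 6 members called for Uro against HFD is a share near that of all genes. For MC against NC, 0 of 5 members passed against 12.2% of genes, with 2 at an unadjusted p under 0.05 and 1 by DESeq2. For HFD against NFD, 0 of 6 passed against 13.2%, with 2 at an unadjusted p under 0.05 and 1 by DESeq2.

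The contrasts with the standard diet gave no call either. For UB against NC, 0 of 5 members passed by edgeR and 0 by DESeq2, against 7.80% of genes, with 0 at an unadjusted p under 0.05. For Uro against NFD, 0 of 6 passed by edgeR and 1 by DESeq2, against 28.4%, with 1 at an unadjusted p under 0.05. The difference of UB-NP effects was called for 2 of 6 members, where 12.3% of 14784 genes were called, and the difference of diet effects for 1 of 6, where 5.42% were. Between the studies, 1 of 6 passed for Uro against UB (13.6% of genes) and for NFD against NC (15.2%). For HFD against MC, 0 of 6 passed by edgeR and 0 by DESeq2 (19.3% of genes), with 1 at an unadjusted p under 0.05.

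**Figure D3:**
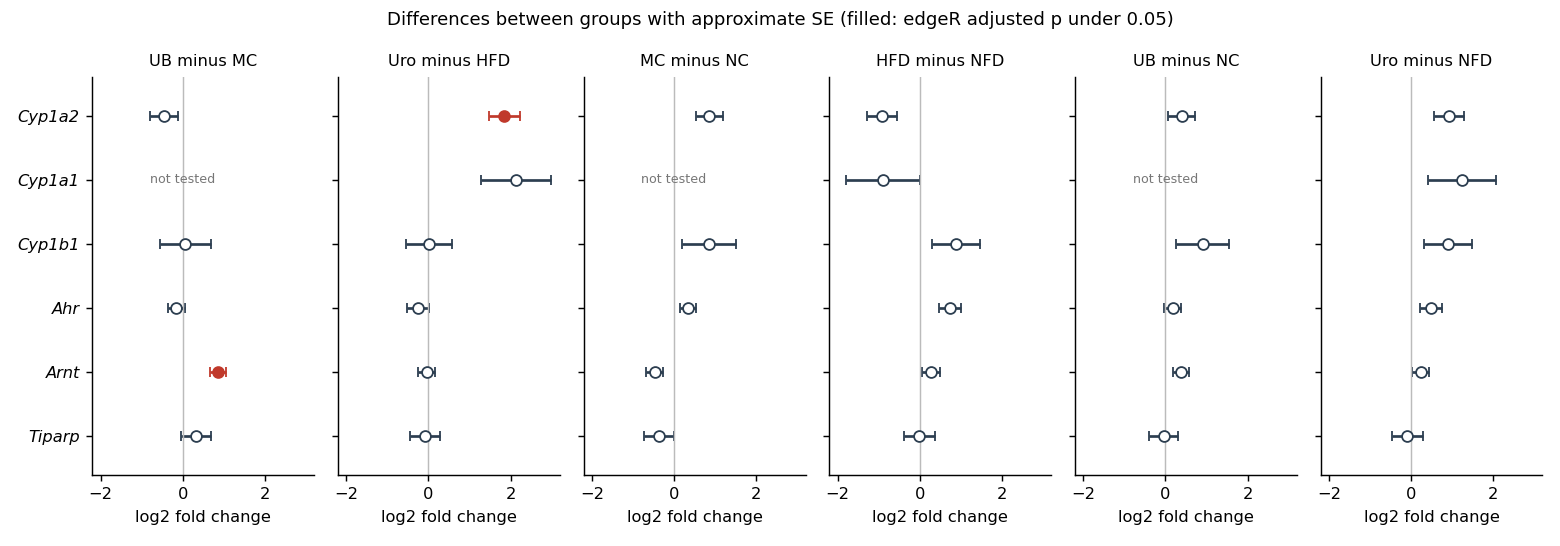
Log2 fold changes of 6 members (down the page) in 6 comparisons (panels), as edgeR estimates with an approximate SE, filled where the adjusted p was under 0.05. The filled points are Arnt for UB against MC, at 0.85, and Cyp1a2 for Uro against HFD, at 1.84.

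Cyp1a2 is a gene of pericentral hepatocytes, and other transcripts of these cells moved in the same samples. Of 12 pericentral markers, 6 rose and 0 fell in Uro livers against HFD livers, with a list median of 0.79 against -0.08 for all genes, of which 15.3% rose and 27.1% passed in either direction. In MC livers against NC livers 11 of the 12 rose, where 12.2% of all genes passed. Cyp2e1, the ethanol-oxidising P450, averaged 5633 ± 977 CPM in Uro livers and 687 ± 391 CPM in HFD livers (SD, n = 5 each; log2 fold change 3.04, edgeR adjusted p = 2.2e-06). Glul, glutamine synthetase, rose by 1.11 (edgeR adjusted p = 0.00247), while Lgr5 and Axin2, which mark Wnt signalling, had -0.54 and -0.27 and did not pass. The summed level of the 12 markers was 7651 to 10563 CPM in Uro livers, 1434 to 3638 CPM in HFD livers and 2055 to 2921 CPM in NFD livers, with none at 0 in any group. Cyp2e1 made up most of the sum in Uro livers, which averaged 8640 CPM, so the sum mainly follows that gene there. In UB livers the sum was 4727 to 6913 CPM, against 2993 to 7381 CPM in MC livers and 3014 to 3604 CPM in NC livers.

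For hepatocyte markers, 4 of 7 rose and 0 fell in Uro livers against HFD livers, and their sum was 29697 to 47057 CPM in Uro livers against 13935 to 25945 CPM in HFD livers. Stellate cell and fibroblast markers, which cover the cells that make Cyp1b1, had 2 of 12 higher and 0 lower, with sums of 321 to 596 CPM in Uro livers against 288 to 563 CPM in HFD livers. Sinusoidal endothelial markers had 4 of 10 higher and 1 lower, Kupffer cell markers 1 of 10 higher and 1 lower, and cholangiocyte markers 0 of 6 higher and 1 lower in Uro livers against HFD livers. The share of all genes called higher was again 15.3%, and the stellate and Kupffer counts are near it. For UB against MC, the calls among all 6 marker lists were Apoa1, a hepatocyte marker, and Tbx3, a pericentral marker, both lower (-1.15 and -1.03, edgeR adjusted p = 0.0298 and 0.0328). Only 0.607% of all genes passed in that comparison. In bulk liver, fewer cells of a type and less RNA per cell cannot be told apart. The part of these markers and of the mitochondrial share in the Cyp1a2 result was not tested by any fit that separates them from the group. With the genes of the mitochondrial chromosome left out of the counts, Cyp1a2 gave 1.81 for Uro against HFD (edgeR adjusted p = 0.00121). With the mitochondrial share as a covariate, which cannot be told apart from the group here, it gave -0.49 (adjusted p = 0.862), and 0 of all genes were called.

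**Figure D4:**
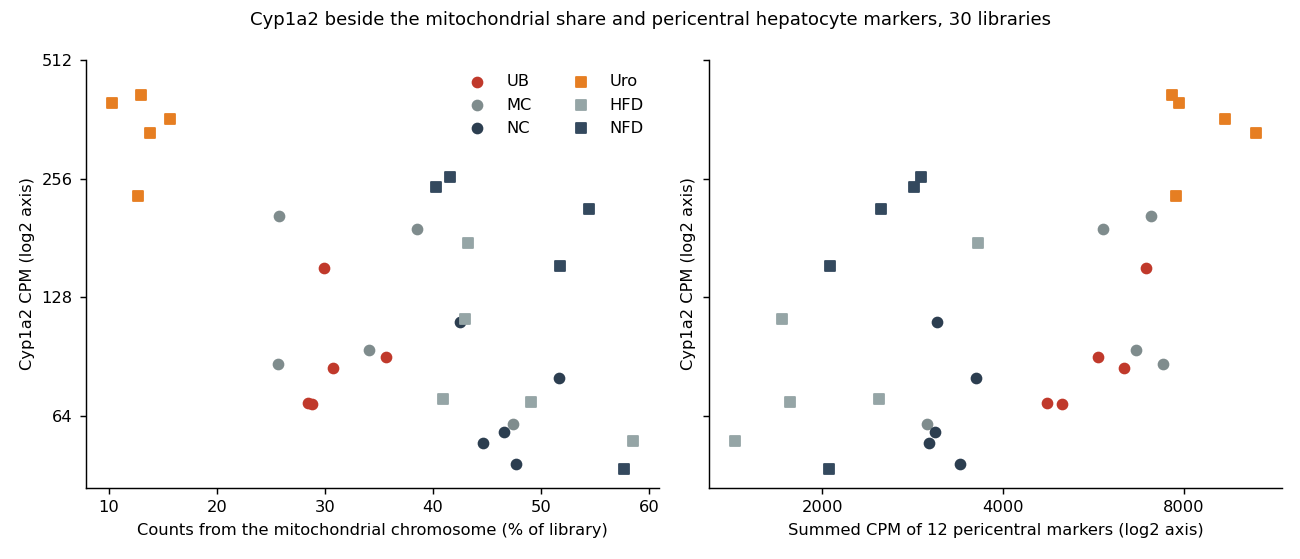
Cyp1a2 in CPM on a log2 axis for each of 30 libraries, against the share of counts from the mitochondrial chromosome in percent (left) and the summed CPM of 12 pericentral markers on a log2 axis (right), with circles for the prevention study and squares for the treatment study. The Uro libraries sit apart from the HFD libraries on all 3 measures, at 10.2% to 15.6% against 41.0% to 58.5% mitochondrial counts. Cyp2e1 makes up most of the marker sum in Uro livers.

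Of 18 further genes reported as AHR targets, 16 were tested. In Uro livers against HFD livers 7 rose and 1 fell, with a median of 0.66 against -0.08 for all genes, of which 27.1% were called and 15.3% rose. Ugt1a6b, a UDP-glucuronosyltransferase, averaged 86.8 ± 13.0 CPM in Uro livers and 15.0 ± 5.13 CPM in HFD livers (SD, n = 5 each; log2 fold change 2.53, edgeR adjusted p = 1.8e-06). Nqo1, a quinone reductase that NRF2 also controls, averaged 11.4 ± 3.36 CPM in Uro livers and 3.41 ± 1.58 CPM in HFD livers (1.71, adjusted p = 0.00164). Every Uro library lay above every HFD library for both. Gsta2, a glutathione S-transferase, averaged 41.9 ± 26.0 CPM in Uro livers and 9.51 ± 4.36 CPM in HFD livers (2.13, adjusted p = 0.000513), with overlapping libraries. The one that fell was Ugt1a7c, at 3.12 ± 0.733 CPM in Uro livers and 15.0 ± 19.2 CPM in HFD livers (-2.22, adjusted p = 0.0203), while with limma on the authors' TPM values 12 of the 16 rose and 0 fell. On that scale 8000 genes were called in all and the median of all genes was 0.55. Ugt1a6b and Ugt1a7c share exons, and Gsta2 has a near-identical copy, Gsta1; how the authors counted shared reads is not stated, so the values of these genes are uncertain.

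In UB livers against MC livers 0 of the 16 passed by edgeR and 1 by DESeq2, with 5 at an unadjusted p under 0.05 and a median of -0.0037 against 0.0033 for all genes. Only 0.607% of all genes passed by edgeR in this comparison. Cyp2a5, the mouse coumarin hydroxylase and the most abundant of them, averaged 461 ± 185 CPM in UB livers and 174 ± 53.1 CPM in MC livers. Every UB library lay above every MC library for it, but it missed the threshold (log2 fold change 1.40 ± 0.52, edgeR adjusted p = 0.317). Ugt1a6b, by contrast, averaged 47.6 ± 15.9 CPM in UB livers and 53.5 ± 16.7 CPM in MC livers (-0.17 ± 0.24, adjusted p = 0.869). The UB-NP effect on Ugt1a6b was larger in the treatment study by 2.68 ± 0.37 in log2 units (edgeR adjusted p = 2e-05). In that direction 3 of the 16 were called, where 12.3% of all genes were called in either direction. For the diet, 2 of the 16 rose and 1 fell in MC livers against NC livers (12.2% of all genes called), and 3 rose and 1 fell in HFD livers against NFD livers (13.2%). Cd36, the fatty acid translocase, had the smallest adjusted p of the list in both, at 53.0 ± 14.5 CPM in MC livers and 10.1 ± 3.12 CPM in NC livers (2.39, adjusted p = 4.3e-07), and at 54.3 ± 16.6 CPM in HFD livers and 10.5 ± 3.22 CPM in NFD livers (2.37, adjusted p = 3.7e-06).

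The proteins that hold AHR in the cytosol and the cofactors it recruits gave 3 higher and 2 lower of 10 in Uro livers against HFD livers, with a median of 0.06, where 27.1% of all genes were called and 15.3% were higher. On the authors' TPM values with limma, which called 8000 genes and shift the median of all genes to 0.55, 6 were higher and 0 lower. Nedd8, the ubiquitin-like modifier of cullins, rose by 1.76 and Ptges3, the HSP90 co-chaperone p23, by 0.88 in log2 units (edgeR adjusted p = 2.3e-06 and 0.00164). Ep300, a histone acetyltransferase, fell by 1.07 (adjusted p = 0.000275). Hsp90ab1, the abundant HSP90 form, averaged 380 ± 33.7 CPM in UB livers and 344 ± 46.4 CPM in MC livers (0.14 ± 0.16, adjusted p = 0.827). For UB against MC, where 0.607% of all genes passed by edgeR, 0 of the 10 passed by edgeR or DESeq2. At an unadjusted p under 0.05 there were 2. In MC livers against NC livers, where 12.2% of all genes were called, Hsp90aa1 was the 1 of 10 that rose, by 0.90 (adjusted p = 0.00739).

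Among the bHLH-PAS relatives of AHR and ARNT, and the p160 coactivators listed with them, 0 rose and 4 of 9 fell in Uro livers against HFD livers, with a median of -0.66, where 27.1% of all genes were called. On the authors' TPM values with limma, which shift the median of all genes to 0.55, this median was 0.21 and 1 rose and 2 fell. The clock factors Bmal1 and Npas2 were among them. Bmal1 averaged 0.435 ± 0.194 CPM in Uro livers and 2.13 ± 0.804 CPM in HFD livers (-2.29, edgeR adjusted p = 0.000155), and Npas2 0.0232 ± 0.0519 CPM in Uro livers and 1.02 ± 0.320 CPM in HFD livers. Both genes cycle over the day in mouse liver, and the time of collection is not given in the sources used here. Bmal1 was also lower in HFD livers than in NFD livers, by -1.45 (adjusted p = 0.0111). For UB against MC, where 0.607% of all genes passed by edgeR, 0 of 8 passed by edgeR and 2 by DESeq2, with 5 at an unadjusted p under 0.05. Epas1, a hypoxia-inducible factor, was the most abundant at 46.3 ± 7.01 CPM in UB livers and 31.4 ± 4.70 CPM in MC livers (0.56 ± 0.17, adjusted p = 0.166).

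Enzymes that turn tryptophan into kynurenines, among which AHR ligands are found, gave 5 of 12 higher and 0 lower in Uro livers against HFD livers, with a median of 0.27, where 15.3% of all genes were higher. Tdo2, the hepatic entry enzyme, averaged 237 ± 71.6 CPM in Uro livers and 114 ± 28.0 CPM in HFD livers (log2 fold change 1.06, edgeR adjusted p = 0.00157). Kyat3 and Haao rose by 1.25 and 0.97 (adjusted p = 0.000443 and 0.00232). The same list had 7 of 12 lower and 0 higher in HFD livers against NFD livers. That comparison shares the HFD libraries and called 13.2% of all genes. For HFD against NFD, DESeq2 called 10 of the 12, but limma on the authors' TPM values called only 1. In MC livers against NC livers, where 12.2% of all genes were called, 3 of 12 were lower. Among these, Tdo2 averaged 201 ± 67.5 CPM in MC livers and 402 ± 59.9 CPM in NC livers (-1.004, adjusted p = 0.00543). For MC against NC, DESeq2 called 3 of the 12 and limma on the authors' TPM values 0. For UB against MC, where 0.607% of all genes passed by edgeR, 0 of 12 passed by edgeR or DESeq2. At an unadjusted p under 0.05 there were 0.

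Targets of the xenobiotic receptors CAR and PXR, which share inducers with AHR in liver, had 5 of 14 higher and 0 lower in Uro livers against HFD livers, with a median of 0.47, where 15.3% of all genes were higher. Cyp2c29 averaged 109 ± 35.1 CPM in Uro livers and 13.0 ± 9.56 CPM in HFD livers (log2 fold change 3.07, edgeR adjusted p = 2.5e-05), and Por, the reductase that all microsomal P450 enzymes draw on, 272 ± 54.5 CPM in Uro livers and 69.9 ± 38.0 CPM in HFD livers (1.96, adjusted p = 0.000209). For UB against MC, where 0.607% of all genes passed by edgeR, 0 of 12 passed by edgeR or DESeq2. At an unadjusted p under 0.05 there were 5. Cyp2c29 belongs to a family of close copies, for which the sharing of reads is again not stated. In MC livers against NC livers, where 12.2% of all genes were called, 4 of 12 rose, Por among them at 0.98 (adjusted p = 0.00507).

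**Figure D5:**
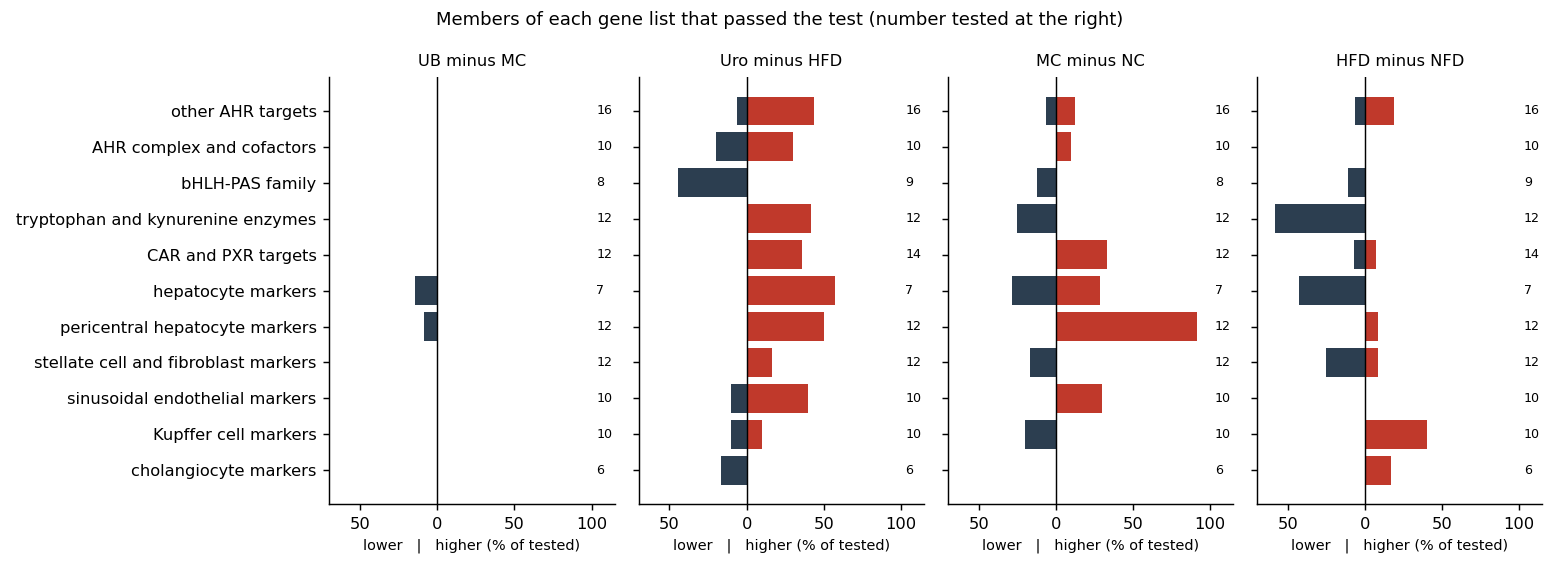
Percent of the tested members of 11 gene lists that were higher (right of 0) or lower (left of 0) at an edgeR adjusted p under 0.05 in 4 comparisons, with the number tested at the right of each bar. For Uro against HFD, 7 of 16 further AHR targets and 6 of 12 pericentral markers were higher, and for UB against MC 0 of either list were. Of all genes, 15.3% were higher for Uro against HFD and 0.207% for UB against MC.

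Ordered by CPM on a scaling common to all 30 libraries, Cyp1a2 was highest in Uro livers at 336 ± 69.6 CPM, then 185 ± 86.8 CPM in NFD, 130 ± 66.8 CPM in MC, 95.1 ± 48.7 CPM in HFD, 94.4 ± 34.6 CPM in UB and 71.4 ± 25.8 CPM in NC livers (SD, n = 5 each). Each group overlapped the next in this order, and the same held for the 6 groups of every other member. The members did not move as a block: the highest correlations of log2 CPM between members over the 30 libraries were 0.50 for Cyp1a1 with Cyp1a2 and 0.49 for Ahr with Cyp1b1, and Arnt had -0.29 with Cyp1a2. Among 11927 genes, those most like Cyp1a2 were Gjb1, the connexin of hepatocytes (Pearson r = 0.92), Cyp2d10 (0.91) and Ttr, encoding the secreted carrier transthyretin (0.90). Those most like Ahr were Adgrg2 (0.74), Adam10 (0.70) and Pls3 (0.69), and those most like Arnt were Tmem164 (0.73), Lair1 (0.64) and Prkcd (0.63). These correlations describe libraries that share group, study and mitochondrial share.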

How the data were processed

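Per the labels' protocols, liver RNA was taken up in TRIzol, selected for poly(A) tails, made into stranded libraries and read in pairs on a NovaSeq X Plus. The build was GRCm39 and the tools fastp, HISAT2, StringTie and DESeq2, per the submitters' processing notes; versions, the annotation and the treatment of reads shared between genes are not given in the sources used here. The deposited values per gene are expected counts, which the authors did not scale, and the deposited TPM table holds abundances that the authors scaled by length and to a common total. A further deposited table holds other values, the authors' calls by comparison, with thresholds not stated.

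From these files, counts were rounded to whole numbers and the 15 libraries of a study went into 1 fit per study in R 4.3.3 with edgeR 4.0.16 (filterByExpr by group, TMM, robust quasi-likelihood F-test, two-sided). Benjamini-Hochberg adjustment ran over all genes tested, and the threshold for a call was an adjusted p of 0.05. Contrasts between the studies came from 1 fit of all 30 libraries, and their CPM from a scaling of all 30. The SE is the absolute log2 fold change over the square root of F, which is approximate. Standard deviations are over 5 libraries. Total counts were 17001679 to 24268921 per library, and limits from a floor of 3 counts over a group cover counting error only. Of 60 pairs of libraries within groups, 0 were identical. Coordinates came from GENCODE M39, which held 56620 of the 57180 gene IDs. Upstream windows of 1500 bases begin at the canonical GENCODE transcript start on GRCm39, and promoter windows came from RefSeq. Figures used matplotlib 3.10.9 in Python 3.11.15.

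Alternatives were DESeq2 1.42.0, limma 3.58.1 on log2(TPM + 1), RLE size factors, no filter on low counts, the replicate number as a block, 1 fit of all 30 libraries, the 37 mitochondrial genes left out, the mitochondrial share as a covariate, and each library left out in turn. The additional removal of 31 nuclear copies of mitochondrial genes, found with BLAST+ 2.17.0 at 80% identity over 50% of their length or more, was chosen after seeing the data. All 8 members are named. From 11 further lists with 132 genes, up to 3 called genes with the smallest p are named per list and comparison, or the most abundant gene where none was called, and Cyp2a5, Ugt1a6b, Ugt1a7c, Glul, Lgr5, Axin2 and Hsp90aa1 are given in some comparisons beyond that rule, chosen after their values were seen. The genes most like a member are the 3 with the highest Pearson r of log2 CPM. The members and lists were chosen with earlier results of these data known. The procedure was tested on simulated counts with known changes. One gene is not reported here.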

Additional observations from a re-analysis of the deposited data

Results flagged for a closer look

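Of 45 sets of 5 libraries, 1 for each member and group with a count, 8 had a single library far above the other 4 by Dixon's test. Chance gives about 1 in 20 only for values with a normal spread. A set with counts in 1 library alone always passes, as for Ahrr in NC and NFD livers and Aldh3a1 in MC and NFD livers. The 8 therefore cannot be weighed against that rate. Most were sparse genes. For Aldh3a1 the high libraries were UB replicate 2 at 1.15 CPM (27 counts), MC replicate 1 at 0.0977 CPM, Uro replicate 3 at 0.114 CPM and NFD replicate 3 at 0.203 CPM. For Ahrr they were NC replicate 3 at 0.453 CPM (6 counts) and NFD replicate 2 at 0.122 CPM (2 counts). Ahr was highest in NC replicate 2, at 11.2 CPM, and Cyp1a2 in UB replicate 5, at 152 CPM, where the other 4 UB libraries had 68.8 to 90.4 CPM.

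The effect of UB-NPs differed between the treatment and the prevention study for Cyp1a2, by 2.28, and for Arnt, by -0.92 in log2 units (edgeR adjusted p = 0.00507 and 0.0252). The effect of the diet differed for Cyp1a2, by -1.82 (edgeR adjusted p = 0.0441). For the effect of UB-NPs, the study, the length of feeding and the time of dosing cannot be told apart. For the effect of the diet, the study and the length of feeding cannot be told apart.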

How the results depend on the processing

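Of 1272 alternative values of single members, 1202 kept their side of the threshold, and their sign where called. Of the 70 exceptions, 35 came from leaving out a library, 19 from the authors' TPM values, 7 from the mitochondrial share as a covariate and 9 from other settings. The 1272 include results never called in the main fit. Arnt kept its call in 8 of 19 alternatives for UB against MC and 20 of 28 for the UB-NP effect difference. Cyp1a2 kept its call in 18 of 19 for Uro against HFD and 27 of 28 for the UB-NP effect difference. For the diet effect difference it did so in 11 of 28, for NFD against NC in 16 of 18 and for Uro against UB in 17 of 18. TPM values shift the median of all genes (0.26 for UB against MC, 0.25 for MC against NC, 0.55 for UB against NC, 0.55 for Uro against HFD, 0.76 for Uro against NFD). Taken without regard to these shifts, Arnt (0.69, adjusted p = 0.00278) and Tiparp (0.27, 0.0484) for Uro against HFD and Tiparp (0.36, 0.00823) for Uro against NFD were called on TPM with the opposite sign. Both Tiparp values lie below the shift of all genes and the Arnt value above it. Tiparp averaged 0.61 TPM in Uro, 0.342 TPM in HFD and 0.256 TPM in NFD livers. At such levels adding 1 shrinks a change, so its values cannot be ranked against the shift. The share as a covariate gave -0.49 for Cyp1a2 in Uro against HFD, where it separates the groups completely.

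Members called with TPM were 4 for Uro against HFD, 1 for MC against NC, 4 for UB against NC, 6 for Uro against NFD, 0 for the diet effect difference, 0 for NFD against NC and 2 for Uro against UB. With the covariate they were 0 for Uro against HFD, 1 for HFD against NFD, 0 for both effect differences, 1 for HFD against MC and 0 for Uro against UB. DESeq2 called 1 for MC against NC, 1 for HFD against NFD and 1 for Uro against NFD. Without the filter on low counts 1 was called for HFD against NFD, 1 for the UB-NP effect difference and 0 for the diet effect difference. The fit of all 30 libraries called 1 for HFD against NFD. With each library left out in turn, members called ranged from 0 to 0 for UB against MC, 1 to 2 for the UB-NP effect difference, and 0 to 1 for MC against NC, HFD against NFD, Uro against NFD, the diet effect difference and NFD against NC. They were 1 to 1 for Uro against HFD and Uro against UB.

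Genes called were 82 for UB against MC, 129 with no filter and 232 with DESeq2. With TPM they were 8000 for Uro against HFD (3836 in counts), 708 for HFD against NFD (1863), 7637 for UB against NC (1053), 10661 for Uro against NFD (4027), 61 for the diet effect difference (801), 143 for NFD against NC (2244), 1297 for HFD against MC (2858) and 3346 for Uro against UB (2008). With the covariate they were 0 for Uro against HFD, 319 for MC against NC, 72 for UB against NC, 0 for Uro against NFD, 0 for the UB-NP effect difference, 204 for the diet effect difference, 1198 for HFD against MC and 431 for Uro against UB. With each library left out they ranged from 20 to 100 for UB against MC, 923 to 2315 for MC against NC, 550 to 1589 for UB against NC, 1108 to 2341 for HFD against NFD, 495 to 1383 for the diet effect difference, 1209 to 3340 for NFD against NC and 1233 to 2056 for Uro against UB. The causes were not tested.

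Same-numbered libraries did not deviate together: over 6 comparisons their correlations were -0.20 to 0.17, with at most 2 of 5 pairs over 0.1. With the replicate block, 0 members were called for UB against MC, where Arnt had 0.84 (adjusted p = 0.0512), and 0 for the diet effect difference, where Cyp1a2 had -1.77 (0.0647). The block changed no other count of members called.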
